A study of Bos taurus with 21 samples.

Results

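Collagens are the main structural proteins of the connective tissue that surrounds muscle fibres, fascicles and whole muscles. Each molecule is a triple helix of alpha chains encoded by separate *COL* genes. The fibrillar collagens assemble into banded fibrils, which fibroblasts lay down in the endomysium, perimysium and epimysium, whereas type IV collagen forms the sheet-like network of the basement membrane around each fibre and capillary. Type VI collagen forms beaded filaments that link the basement membrane to the interstitial matrix, and other families decorate fibrils, span the cell membrane or build short-chain networks.

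Every gene whose symbol is COL, a number, A and a number was taken, after the array's RefSeq transcripts had been mapped to current cattle gene symbols. Of 44 such genes in the annotation, 21 had a named probe, out of 12538 named genes in all, and the probe with the highest mean signal stood for each gene. The other 23, which include *COL4A2*, *COL5A1*, *COL5A2*, *COL6A3* and *COL14A1*, were not analysed here. The 21 genes comprised 8 fibrillar collagens, 4 basement membrane collagens, 2 beaded filament collagens, 3 short-chain network collagens, 2 transmembrane collagens, the fibril-associated *COL12A1* and *COL26A1*.

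RNA came from the muscle of 21 foetuses, each hybridised to 1 single-colour bovine array. Blonde d'Aquitaine (BA) is a muscular French breed in which a *MSTN* mutation is common but not universal, and Charolais (CH) is the breed it was compared with. BA foetuses numbered 3 at 110 days post-conception (dpc), 2 at 180 dpc, 3 at 210 dpc and 2 at 260 dpc. CH foetuses numbered 2 at 110 dpc and 3 at each of 180, 210 and 260 dpc. Foetuses of each breed had a sire and a dam of that breed, no foetus received a treatment, and both sexes were present (3 males and 7 females in BA, 5 males and 6 females in CH). The BA males were replicates 1 and 3 at 110 dpc and replicate 3 at 210 dpc. The CH males were replicate 3 at 180 dpc, replicates 2 and 3 at 210 dpc and replicates 1 and 2 at 260 dpc. Breed and sex are thus partly mixed within stages. The sample labels name the Longissimus thoracis muscle, whereas the methods of the study name the Semitendinosus. All 11 measured skeletal muscle fibre markers were well above background on all 21 arrays. Per the study's text, the BA foetuses were not genotyped for the mutation, so which of them carried it is not known here. The breeds also differ in their whole genetic background, and the comparisons below are between breeds, not *MSTN* genotypes.

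Values are log2 signals after scaling of each array by its 75th percentile, with 0 placed at the median probe, and levels of different probes are not comparable. Testing was limited to probes whose group mean exceeded 0 for 7 or more of the 8 groups. That left 15 of the 21 collagens, namely 7 fibrillar, 3 basement membrane, 2 beaded filament and 2 short-chain collagens and *COL12A1*. The 6 under the filter were *COL4A3*, *COL10A1*, *COL11A2*, *COL13A1*, *COL17A1* and *COL26A1*. The 75th percentile of signal ranged from 525 to 1174 between arrays, and 29017 to 34501 of 43653 probes were well above background. In bulk tissue, fewer cells of a type and less RNA per cell cannot be told apart.

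A pair of foetuses stood apart from their groups in cartilage-type collagens and tendon genes, though not only in these. The tendon gene *TNMD* read 6.32 in BA 110 dpc replicate 1 against 1.65 and 4.14 in the other BA foetuses of that stage, and 4.55 in CH 180 dpc replicate 3 against 1.17 and -0.23. For *MKX*, another tendon gene, these foetuses read 2.88 against 0.39 and 1.45, and 2.27 against 0.47 and 0.48. *TNMD* was also high in CH 210 dpc replicate 3, at 3.65 against -0.10 and 2.07. BA 110 dpc replicate 1 and CH 180 dpc replicate 3 had the highest *COL2A1*, *COL11A1*, *COL11A2*, *COL10A1* and *COL8A2* of their groups. The BA foetus also had the highest *COL1A1*, *COL1A2*, *COL3A1*, *COL6A1*, *COL6A2*, *COL8A1* and *COL12A1* of its group. The CH foetus also had the highest *COL1A1* and *COL1A2* of its group. Over the 5 measured tendon and cartilage markers the foetuses' mean level spanned -1.46 to 1.33 at 110 dpc, against -1.93 to -0.66 at 260 dpc, and 3 of the 5 were well above background on all arrays. *TNMD* (-4.12) and *MKX* (-2.12) were lower at 260 than at 110 dpc. The cartilage markers *ACAN* (-1.30), *MATN1* (0.76) and *COMP* (0.21) did not pass. All but *TNMD* were under the filter and taken from a fit over all probes. The part of this tissue in the collagen values was not tested. Leaving out both foetuses was an alternative chosen after seeing the data. The resulting values are given beside the stage changes of *COL2A1*, *COL11A1*, *COL11A2*, *COL10A1*, *COL8A2*, *COL12A1*, *COL1A1*, *COL1A2* and *COL3A1*.

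Across gestation the collagens changed in both directions, with more falling than rising. Between 110 and 260 dpc, averaged over the breeds, 8 of the 15 tested collagens fell, 3 rose and 4 did not pass the test. Over all 7930 tested genes, 31.5% fell and 33.8% rose. The median collagen change was -0.87 on the log2 scale, against 0.03 for all tested genes. Without both foetuses that stood apart the counts were again 8 lower and 3 higher. In BA alone 8 were lower and 3 higher, against 25.5% and 28.6% of all genes, and in CH alone 7 were lower and 3 higher, against 25.9% and 27.7%.

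**Figure D1:**
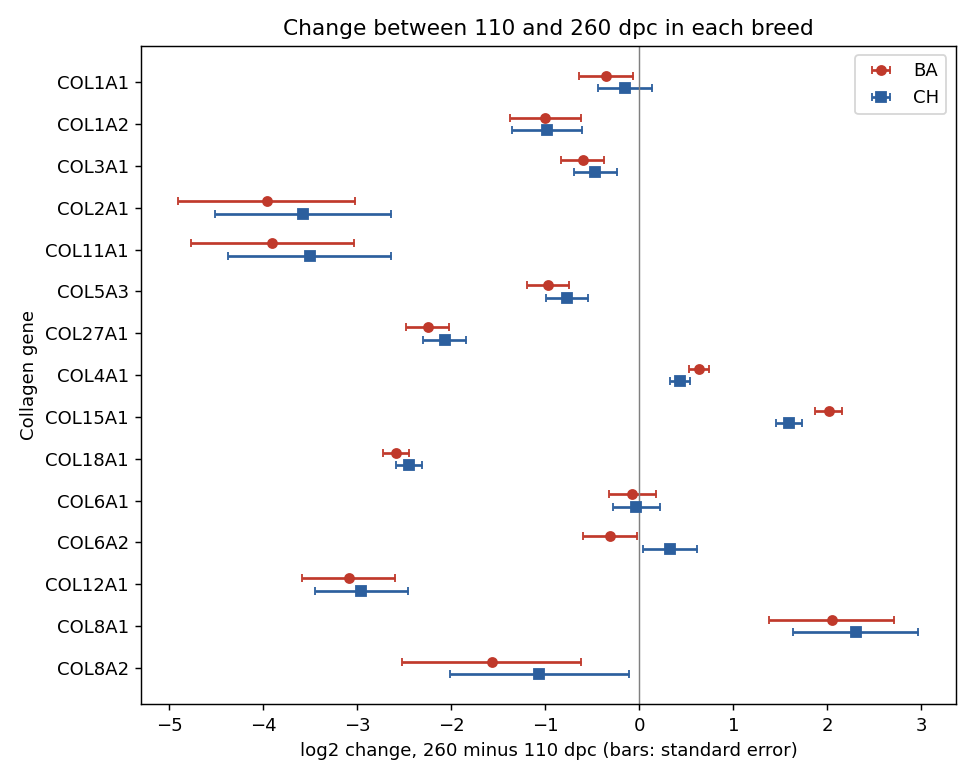
Change between 110 and 260 dpc (x axis, log2 scale) for the 15 tested collagens (y axis), with circles for BA, squares for CH and bars for the standard error. *COL2A1* and *COL11A1* lie farthest left, with changes between -3.96 and -3.51, and *COL4A1*, *COL15A1* and *COL8A1* lie right of 0 in both breeds.

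The fibrillar collagens fell or did not pass the test. Of the 7 tested, 6 were lower at 260 than at 110 dpc and none was higher (31.5% and 33.8% of all tested genes), with a median of -0.99. The most abundant proteins of the muscle's fibrils are types I and III, and the cartilage-type chains *COL2A1* and *COL11A1* had the largest falls.

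*COL2A1*, the chain of type II collagen, which is the main collagen of cartilage, read 8.01, 4.10 and 5.57 in BA and 5.70 and 4.75 in CH at 110 dpc. At 260 dpc it read 2.84 and 1.02 in BA and 1.83, 1.65 and 1.47 in CH. Every 260 dpc foetus lay below every 110 dpc foetus. The fall was 3.77 ± 0.66 (SE) on the log2 scale, a 13.6-fold lower signal, with an adjusted p of 8.9e-05. Without both foetuses that stood apart it fell by 3.24 (adjusted p = 1.1e-05).

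*COL11A1*, which forms heterotypic fibrils with type II collagen, is known chiefly from cartilage too. It read 7.09, 3.23 and 4.56 in BA and 4.92 and 4.19 in CH at 110 dpc, then 2.20 and -0.07 in BA and 0.62, 1.25 and 1.28 in CH at 260 dpc. The stages did not overlap, and the signal fell by 3.70 ± 0.62 on the log2 scale, or 13.0-fold (adjusted p = 5e-05). Leaving out both foetuses gave a change of -3.17 (adjusted p = 1.1e-05). All 3 tested *COL11A1* probes and both tested *COL2A1* probes were lower. In the fit over all probes, 1 of the other 2 *COL2A1* probes was lower (-1.73) and the dimmest did not pass (-1.09, adjusted p = 0.21).

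*COL27A1*, a fibrillar collagen of developing cartilage and other tissues, had tighter groups. Its values at 110 dpc were 4.87, 4.64 and 4.59 in BA and 4.52 and 4.75 in CH, and at 260 dpc 2.41 and 2.50 in BA and 3.06, 2.51 and 2.13 in CH. The fall of 2.16 ± 0.16, or 4.46-fold, had an adjusted p of 4.2e-09. It was also lower in each step, by 0.69 from 110 to 180 dpc, by 0.52 from 180 to 210 dpc and by 0.95 from 210 to 260 dpc.

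*COL5A3*, a minor chain of type V collagen that joins fibrils of type I, read 2.57, 3.05 and 2.65 in BA and 2.61 and 2.61 in CH at 110 dpc. By 260 dpc it read 1.74 and 1.82 in BA and 1.42, 2.15 and 1.95 in CH, below all values at 110 dpc. It fell by 0.87 ± 0.16, or 1.83-fold (adjusted p = 0.00012). With the array slide as a block the change was -0.49 and did not pass (adjusted p = 0.13).

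*COL1A2*, a chain of type I collagen, read 10.43, 9.23 and 9.33 in BA and 9.71 and 9.21 in CH at 110 dpc, and 9.09 and 8.24 in BA and 8.15, 8.87 and 8.42 in CH at 260 dpc. The stages did not overlap. The signal fell by 0.99 ± 0.27, or 1.99-fold (adjusted p = 0.0035), and all 5 of its tested probes were lower, as was the 1 under the filter (-1.68 in the fit over all probes). Without both foetuses that stood apart the change was -0.80 and still passed.

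*COL1A1*, the other type I chain, read 9.11, 7.86 and 8.30 in BA and 8.34 and 8.40 in CH at 110 dpc, and 8.41 and 7.73 in BA and 7.995, 8.52 and 8.13 in CH at 260 dpc. These stages overlapped, and the change of -0.25 ± 0.21 did not pass (adjusted p = 0.3, 95% interval -0.69 to 0.18). Without both foetuses that stood apart it was -0.08. The result depended on the probe. The brightest probe had the smallest change of 5, the other 4 had a median of -1.03, and 3 of those 4 were lower. No spot of any probe was marked as saturated, and the intensity of the brightest *COL1A1* probe ranged from 19406 to 72576. The mean of the 5 probes fell by 0.87 (adjusted p = 0.028), and the brightest probe also passed as lower after quantile normalization (-0.80, adjusted p = 0.0023) and in the unscaled value table of the authors (-0.64, adjusted p = 0.028).

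*COL3A1*, the chain of the type III collagen of reticular fibrils, read 9.86, 9.31 and 9.15 in BA and 9.65 and 9.32 in CH at 110 dpc, and 8.99 and 8.70 in BA and 8.68, 9.43 and 8.94 in CH at 260 dpc. One CH foetus at 260 dpc reached the range of the earlier stage. *COL3A1* fell by 0.53 ± 0.16, or 1.45-fold (adjusted p = 0.0084). Without both foetuses that stood apart the change was -0.43 and still passed. All 10 probes were lower, by up to 1.38, and the brightest had the smallest change. With slide as a block the brightest probe's change was -0.28 and did not pass (adjusted p = 0.33).

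**Figure D2:**
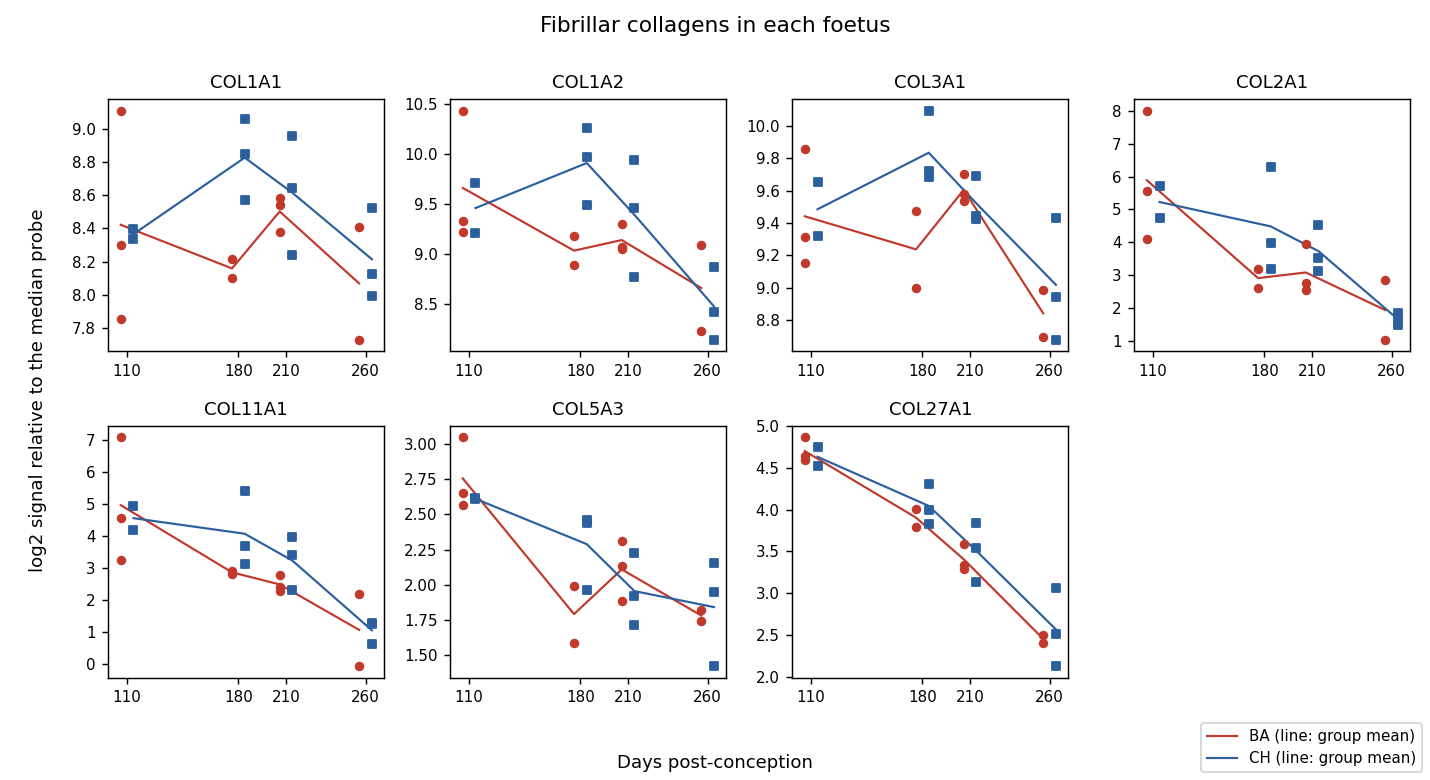
Log2 signal (y axis, 0 at the median probe, scale differing by panel) against days post-conception (x axis) for the 7 tested fibrillar collagens, with red circles for BA foetuses, blue squares for CH foetuses and lines through the group means. BA 110 dpc replicate 1 is the highest point of *COL2A1* (8.01) and *COL11A1* (7.09), and in *COL1A1*, *COL1A2* and *COL3A1* both BA foetuses at 180 dpc lie below the 3 CH foetuses.

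The steps between neighbouring stages were tested one by one, and whether a gene changed more in one step than in another was not tested. From 110 to 180 dpc *COL5A3* and *COL27A1* fell, whereas *COL1A1*, *COL1A2* and *COL3A1* had changes of 0.10, -0.09 and 0.07 that did not pass. In the same step *COL2A1* had a change of -1.87 ± 0.66, just short of the threshold (unadjusted p = 0.012 and adjusted p = 0.05 in limma), and *COL11A1* one of -1.29 ± 0.62 (adjusted p = 0.14). From 210 to 260 dpc *COL1A2* fell by 0.70, *COL3A1* by 0.63, *COL2A1* by 1.61 (adjusted p = 0.046) and *COL11A1* by 1.80 (adjusted p = 0.019). Over all 15 tested collagens, 4 fell and 2 rose from 110 to 180 dpc (11.5% and 13.6% of all genes), 2 fell and 1 rose from 180 to 210 dpc (4.98% and 4.85%), and 8 fell and 1 rose from 210 to 260 dpc (21.6% and 25.4%). Without BA 260 dpc replicate 2, 4 collagens in all passed in that last step.

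More fibroblast markers fell than rose over the same interval. Of 7 tested fibroblast and connective tissue markers, 4 were lower at 260 than at 110 dpc and none was higher. Over all tested genes 31.5% were lower and 33.8% higher. The 4 were *FAP* (-2.01), *TCF7L2* (-1.15), *THY1* (-0.83) and *PDGFRA* (-0.42). The eighth listed marker, the growth factor receptor *PDGFRB*, was under the filter and was higher (0.66, adjusted p = 0.026 in the fit over all probes). The mean level of the 8 measured markers spanned 3.56 to 4.41 at 110 dpc, against 3.22 to 3.57 at 260 dpc, and all 8 were well above background on every array. Over the same interval 9 of 11 skeletal muscle fibre markers rose and 1 fell, against 33.8% and 31.5% of all tested genes. Their part in the collagen changes was not tested.

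The basement membrane collagens went in both directions, with 2 of the 3 tested higher and 1 lower at 260 than at 110 dpc (33.8% and 31.5% of all tested genes). *COL4A1*, a chain of the ubiquitous type IV network, read 7.18, 7.07 and 6.87 in BA and 7.16 and 7.17 in CH at 110 dpc. It read 7.70 and 7.64 in BA and 7.52, 7.67 and 7.62 in CH at 260 dpc. The stages did not overlap, and it rose by 0.54 ± 0.08, or 1.45-fold (adjusted p = 7.8e-06). From 110 to 180 dpc it rose by 0.51 ± 0.08 (adjusted p = 1e-04). The next steps were 0.20 to 210 dpc (95% interval 0.05 to 0.35) and -0.18 to 260 dpc (95% interval -0.33 to -0.02), and neither passed over all genes. Group means were highest at 210 dpc in both breeds (7.73 in BA and 7.90 in CH). The call from 110 to 260 dpc was lost after quantile normalization (0.03, adjusted p = 0.84) and in the unscaled value table (0.15, adjusted p = 0.57). For that interval 2 of its 4 probes were higher, with a range of -0.05 to 0.54. *COL4A2*, its neighbour in the genome and its partner in the same trimer, was not analysed here.

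*COL15A1*, a collagen of the zone just outside the basement membranes of muscle fibres and capillaries, read 2.77, 2.87 and 2.66 in BA and 2.57 and 2.77 in CH at 110 dpc. It reached 4.35 and 4.64 in BA and 4.60, 4.78 and 4.75 in CH at 180 dpc. At 210 dpc it read 5.06, 5.38 and 5.14 in BA and 5.02, 5.13 and 4.87 in CH. It then read 4.76 and 4.80 in BA and 4.30, 4.04 and 4.46 in CH at 260 dpc. All later foetuses lay above those of 110 dpc, and the group means of both breeds were highest at 210 dpc. The rise to 180 dpc was 1.89 ± 0.10 (adjusted p = 1.7e-09), that to 210 dpc a further 0.50 ± 0.09 (adjusted p = 0.0036), and the last step was -0.58 ± 0.09 (adjusted p = 0.00011). Over the whole interval it was 3.49-fold higher (1.80 ± 0.10, adjusted p = 8.7e-11). The mean level of the 6 measured endothelial markers spanned 2.60 to 2.88 at 110 dpc, 3.25 to 3.53 at 180 dpc, 2.94 to 3.47 at 210 dpc, then 2.56 to 2.95 at 260 dpc. That mean was highest at 180 dpc in both breeds, as were the group means of *CDH5*, *KDR* and *TIE1*. *TEK* was highest at 210 dpc in both (3.38 in BA and 3.63 in CH). For *PECAM1* and *VWF* the stage with the highest mean differed between the breeds. From 110 to 260 dpc *PECAM1* (0.48), *TEK* (0.54) and *VWF* (0.43) were higher, *KDR* (-0.63) was lower and the other 2 did not pass. The part of endothelial content in the *COL15A1* course was not tested.

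*COL18A1*, whose C-terminal fragment is endostatin, had the smallest adjusted p of the tested collagens. It read 8.93, 9.20 and 9.17 in BA and 8.92 and 9.08 in CH at 110 dpc, and 6.55 and 6.49 in BA and 6.72, 6.36 and 6.57 in CH at 260 dpc. The fall was 2.52 ± 0.10, or 5.72-fold (adjusted p = 1.6e-12), with a lower value in each step (0.50, 0.65 and 1.36).

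Within *COL18A1* the probes disagreed. Of 5 tested probes named to a single transcript, 4 fell by 2.49 to 2.55, and the other, the fourth by signal, rose by 1.73 (adjusted p = 1e-08). The rising probe spanned 2.25 to 2.45 at 110 dpc, 2.35 to 2.81 at 180 dpc, 2.07 to 3.18 at 210 dpc, then 3.89 to 4.47 at 260 dpc. Its rise therefore lay in the last step (1.47), when the brightest probe fell by 1.36. Whether the probe reads another transcript form or another sequence was not tested.

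**Figure D3:**
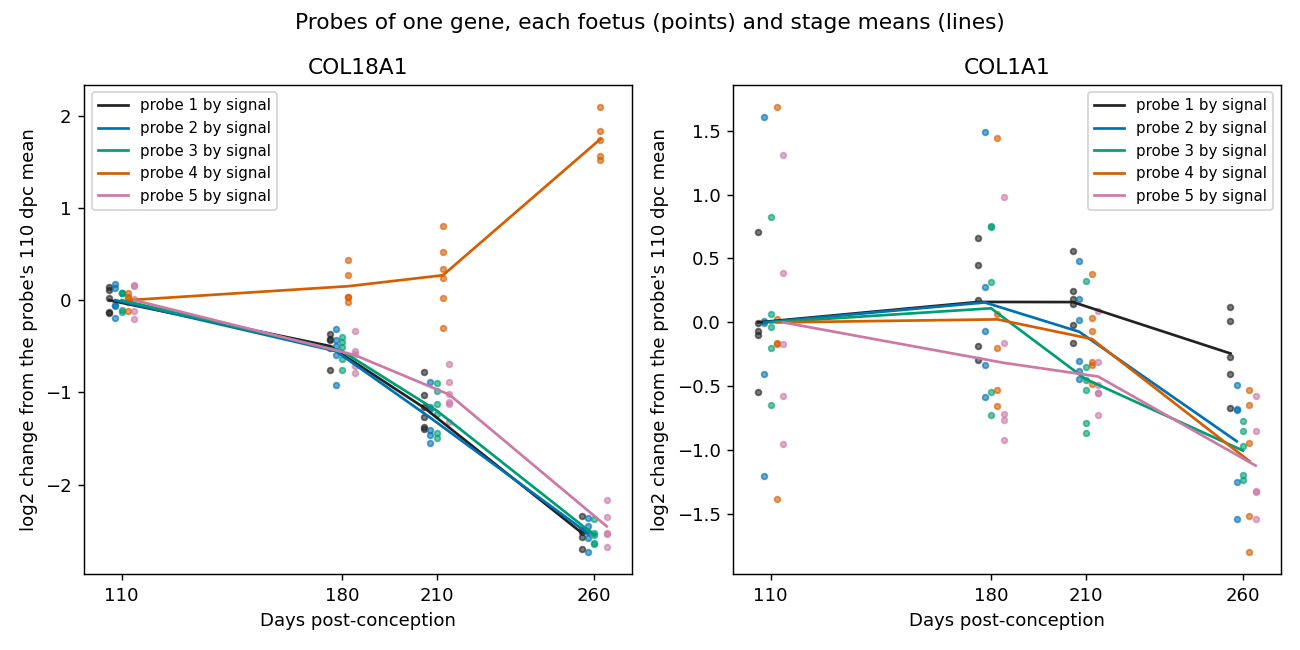
Change of each tested probe of *COL18A1* (left) and *COL1A1* (right) from its own 110 dpc mean (y axis, log2 scale) against days post-conception (x axis), with points for foetuses and lines for stage means. In *COL18A1* 1 of 5 probes rises while 4 fall together, and in *COL1A1* the brightest probe (probe 1) falls less than the other 4.

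*COL4A3*, a type IV chain best known from kidney and lung basement membranes, was under the filter. It was well above background in 1 BA foetus at 110 dpc, 1 BA foetus at 260 dpc and 2 of 3 CH foetuses at 260 dpc. In CH neither foetus of 110 dpc was well above background. With their values raised to the lowest signal well above background on each array, the CH mean at 260 dpc was 2.08-fold higher. That mean includes the CH foetus that was not well above background. The values as read gave an adjusted p of 0.0017 in the limma fit over all probes.

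The beaded filament collagens did not pass in any stage comparison. *COL6A1* read 9.30, 8.23 and 8.32 in BA and 8.56 and 8.45 in CH at 110 dpc, and 8.69 and 8.39 in BA and 8.20, 8.58 and 8.65 in CH at 260 dpc. The difference was -0.05 ± 0.18 (adjusted p = 0.81, 95% interval -0.43 to 0.32). *COL6A2*, which lies next to *COL6A1* in the genome with no gene between them, read 3.61, 2.39 and 3.19 in BA and 2.72 and 2.76 in CH at 110 dpc, and 3.01 and 2.51 in BA and 2.98, 2.87 and 3.36 in CH at 260 dpc. Its difference was 0.01 ± 0.20 (adjusted p = 0.97, 95% interval -0.42 to 0.44). The stages overlapped for both genes, and the sign of each difference flipped with the scaling. After quantile normalization *COL6A1* was lower (-0.61, adjusted p = 0.007). The third chain of this trimer, *COL6A3*, was not analysed here.

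*COL12A1*, a fibril-associated collagen of dense connective tissue, had one of the larger falls. It read 7.96, 5.51 and 6.18 in BA and 6.46 and 6.38 in CH at 110 dpc, and 3.78 and 3.14 in BA and 3.00, 3.41 and 3.98 in CH at 260 dpc. No foetus of 260 dpc reached the range of 110 dpc. The fall was 3.02 ± 0.35, or 8.13-fold (adjusted p = 8.1e-07), and 2.67 without both foetuses that stood apart (adjusted p = 4.6e-08).

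Of the short-chain collagens, *COL8A1*, a chain of a network found in vessel walls, rose and *COL8A2* did not pass. *COL8A1* read 1.72, 0.06 and 0.39 in BA and 0.43 and 0.12 in CH at 110 dpc, and 2.41 and 3.13 in BA and 1.69, 1.84 and 4.21 in CH at 260 dpc. The stages touched, since BA 110 dpc replicate 1 exceeded the lowest CH foetus of 260 dpc. The rise was 2.17 ± 0.47, or 4.51-fold (adjusted p = 0.00063), and with slide as a block it was 1.45 and did not pass (adjusted p = 0.17). *COL8A2* read 4.00, 0.46 and 1.80 in BA and 2.25 and 1.47 in CH at 110 dpc, and -0.38 and 1.42 in BA and 2.07, 1.72 and -1.40 in CH at 260 dpc. Its difference was -1.32 ± 0.67 (adjusted p = 0.097, 95% interval -2.74 to 0.10), and -0.84 without both foetuses that stood apart (adjusted p = 0.23).

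**Figure D4:**
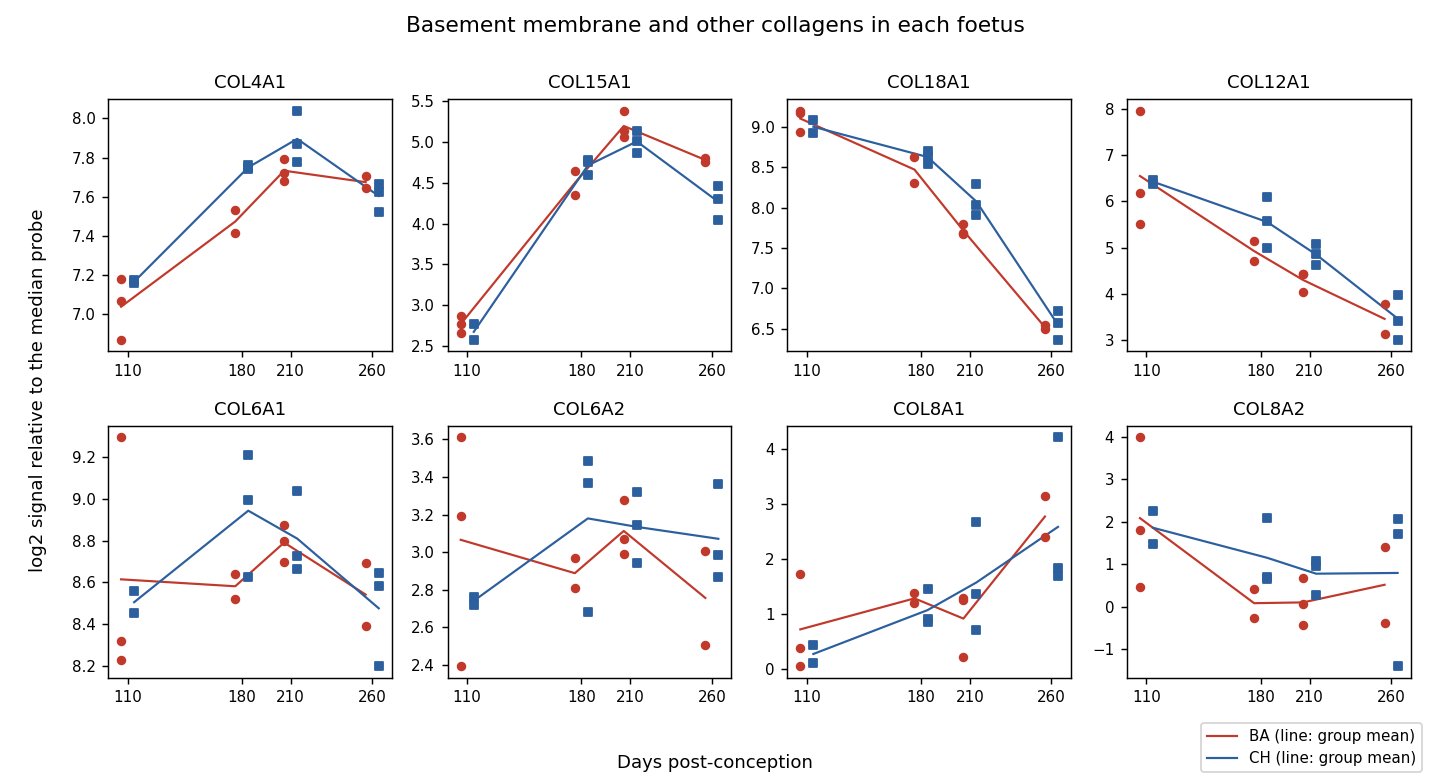
Log2 signal (y axis, 0 at the median probe, scale differing by panel) against days post-conception (x axis) for the 8 tested collagens outside the fibrillar class, with red circles for BA foetuses, blue squares for CH foetuses and lines through the group means. *COL15A1* climbs from 2.57 to 2.87 at 110 dpc to between 4.87 and 5.38 at 210 dpc, and *COL18A1* falls to between 6.36 and 6.72 at 260 dpc.

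The remaining collagens were dim. In the fit over all probes *COL11A2*, a partner chain of *COL11A1*, was lower at 260 than at 110 dpc (-2.14 ± 0.74, adjusted p = 0.028), with 3.49, -0.17 and 1.14 in BA at 110 dpc. Without both foetuses that stood apart it was lower by 1.64 (adjusted p = 0.02). Neither breed passed alone (adjusted p = 0.17 in BA and 0.12 in CH). The call was lost without BA 110 dpc replicate 1 (-1.64, adjusted p = 0.065), BA 260 dpc replicate 2 (-1.57, adjusted p = 0.16), CH 110 dpc replicate 1 (-1.73, adjusted p = 0.13) or CH 260 dpc replicate 2 (-2.05, adjusted p = 0.054). The transmembrane collagen *COL13A1*, a component of the neuromuscular junction, was lower by 1.33 ± 0.33 (adjusted p = 0.0033). *COL10A1*, the collagen of hypertrophic cartilage, had a difference of -0.44 ± 0.46 (adjusted p = 0.47), and -0.088 without both foetuses. *COL17A1*, a collagen of hemidesmosomes, was lower by 1.37 ± 0.43 (adjusted p = 0.017), but not without BA 260 dpc replicate 1 (-0.87, adjusted p = 0.13) or CH 110 dpc replicate 1 (-1.32, adjusted p = 0.055). Neither breed passed alone (adjusted p = 0.11 in BA, 0.095 in CH), and in BA neither foetus of 260 dpc was well above background. With their values raised as for *COL4A3*, the BA mean at 110 dpc was 1.09-fold higher than at 260 dpc. For *COL26A1* all 21 arrays were short of that detection limit.

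The genes that modify, export, crosslink and bind collagen fell more often than they rose. Of 43 listed, 34 were measured and 25 tested, and 21 of these were lower and 1 higher at 260 than at 110 dpc, against 31.5% lower and 33.8% higher over all tested genes, with a median of -0.83. Among those of folding and modification, 12 of 14 were lower, including the prolyl 3-hydroxylase *P3H2* (-2.92), the chaperone *FKBP10* (-2.07), the lysyl hydroxylase *PLOD2* (-1.56), the hydroxylysine galactosyltransferase *COLGALT1* (-1.40) and the collagen chaperone *SERPINH1* (-0.95). *TMEM38B*, an ion channel of the endoplasmic reticulum, rose by 1.26. Of 7 genes of export, propeptide removal and crosslinking, 5 were lower, including the lysyl oxidases *LOX* (-1.11), *LOXL1* (-1.68), *LOXL2* (-1.21) and *LOXL3* (-1.32). All 4 tested receptors and uptake genes were lower, among them the discoidin receptor *DDR1* (-1.04) and the endocytic receptor *MRC2* (-1.09). Under the filter, the propeptidase enhancer *PCOLCE2* rose by 3.85 and the lysyl oxidase *LOXL4* by 2.15 in the fit over all probes. In that fit *P4HA3* (-2.84), *ITGA10* (-1.39) and *TLL1* (-0.89) were lower, and the others under the filter did not pass. *TLL1* was well above background on only 2 of 21 arrays, so its value lies near the floor.

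No collagen passed a comparison between the breeds. Averaged over the stages, limma called 0 of 15 at an adjusted p under 0.05 (0.404% of all genes) and 2 had an unadjusted p under 0.05. Of all 20132 tested probes, 2512 had an unadjusted p under 0.05 in that comparison. The 3 with the lowest p were *COL4A1*, *COL15A1* and *COL18A1*. *COL4A1* had a difference, BA minus CH, of -0.12 ± 0.05 (adjusted p = 0.34, 95% interval -0.23 to -0.01). *COL15A1* had a difference of 0.15 ± 0.07 (adjusted p = 0.4) and *COL18A1* one of -0.11 ± 0.07 (adjusted p = 0.52, 95% interval -0.25 to 0.03). For the main fibrillar chains the 95% intervals of BA minus CH ran from -0.52 to 0.08 for *COL1A1*, from -0.57 to 0.20 for *COL1A2* and from -0.42 to 0.05 for *COL3A1*.

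Stage by stage, limma called 0 collagens at 110 dpc (0.24% of all genes), 180 dpc (0.0252%), 210 dpc (0%) and 260 dpc (0%). In the same order, 0, 5, 1 and 1 had an unadjusted p under 0.05. Of all 20132 tested probes, 2775, 1242, 1054 and 1075 did at these stages. At 180 dpc 14 of 15 differences were below 0, with a median of -0.50, whereas the median of all tested genes was 0.00. At 110 dpc 13 of 15 were above 0, with a median of 0.12. These stages include the foetuses that stood apart, BA 110 dpc replicate 1 and CH 180 dpc replicate 3. Their part in these counts was not tested. In 6 of the 15 both BA foetuses at 180 dpc lay below all 3 CH foetuses, as they did in 13.7% of all tested genes.

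These 6 were *COL1A1*, *COL1A2*, *COL3A1*, *COL4A1*, *COL8A2* and *COL11A1*. At 180 dpc *COL1A1* read 8.10 and 8.22 in BA and 8.85, 8.57 and 9.06 in CH, a difference of -0.67 ± 0.29 (adjusted p = 0.77). *COL1A2* read 8.89 and 9.18 in BA and 9.98, 9.50 and 10.26 in CH, a difference of -0.87 ± 0.38 (adjusted p = 0.76). *COL3A1* read 8.997 and 9.48 in BA and 10.09, 9.72 and 9.68 in CH, a difference of -0.60 ± 0.23 (adjusted p = 0.73). The groups are of 2 and 3 foetuses, and none of these differences passed the test over all genes. Both BA foetuses were female, and CH replicate 3 was the only male at this stage. All 5 *COL1A1*, all 5 *COL1A2* and all 10 *COL3A1* tested probes were lower in BA in value at this stage. The 1 slide that held both breeds at 180 dpc held a single foetus of each, whose differences were -0.36 for *COL1A1*, -0.31 for *COL1A2* and -0.25 for *COL3A1*.

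For *COL2A1* and *COL11A1* the 180 dpc difference rested largely on CH replicate 3, the only male at that stage. *COL2A1* read 3.20 and 2.61 in BA and 3.97, 3.18 and 6.29 in CH, and its difference of -1.58 was -0.67 without that foetus. *COL11A1* went from -1.21 to -0.55. *COL8A2*, also highest in CH replicate 3 within its group, had a difference of -1.07. With each array left out in turn that difference ranged from -1.41 to -0.60. The mean of the fibroblast and connective tissue markers at 180 dpc ranged from 3.45 to 3.65 in BA and from 3.79 to 4.25 in CH, and 6 of 7 tested markers were lower in value in BA. The part of fibroblast content in the collagen differences was not tested.

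At 260 dpc *COL15A1* read 4.76 and 4.80 in BA and 4.30, 4.04 and 4.46 in CH, so that both BA foetuses lay above all CH foetuses. Among the 15 tested collagens it was the only 1 to do so, and 8.73% of all tested genes did. The difference was 0.51 ± 0.14 (95% interval 0.22 to 0.81) and did not pass over all genes (adjusted p = 0.42). Both BA foetuses at this stage were female, whereas CH replicates 1 and 2 were male.

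No collagen passed the interaction test, which asks whether the change from 110 to 260 dpc differed between the breeds (0 of 15 called by limma, 0% of all genes, and 0 at an unadjusted p under 0.05). Of all 20132 tested probes, 1427 had an unadjusted p under 0.05 in that test. Both interaction terms around 180 dpc, added after the 180 dpc differences had been seen, called 0 as well (0% of all genes each). The change from 110 to 180 dpc had 0 and that from 180 to 260 dpc had 2 collagens at an unadjusted p under 0.05. Over all 20132 tested probes the matching counts were 1534 and 893.

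**Figure D5:**
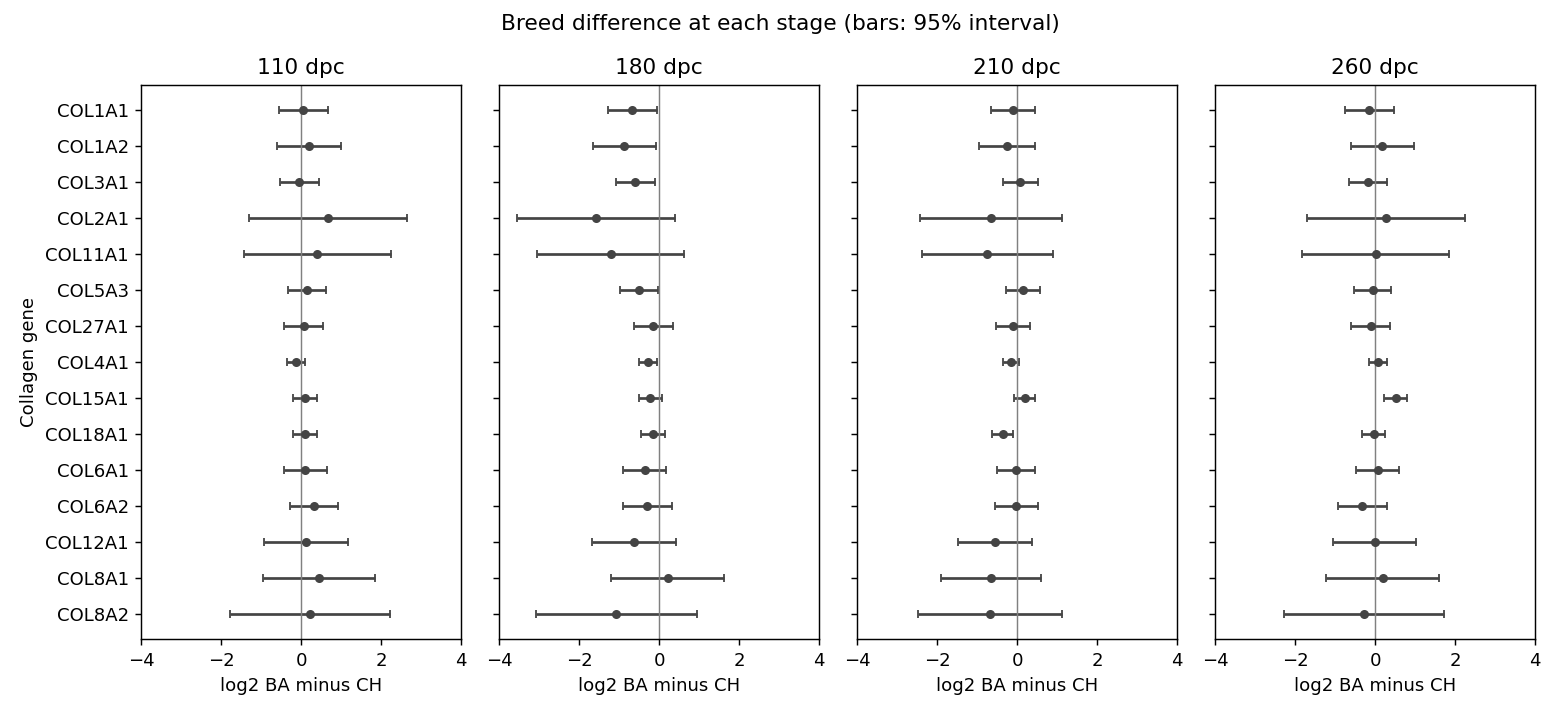
Difference BA minus CH (x axis, log2 scale) for the 15 tested collagens (y axis) at each stage, with points for estimates and bars for 95% intervals that are not adjusted for the number of genes. At 180 dpc 14 of 15 points lie left of 0, and at 110 dpc 13 lie right of 0. The genes were read in the same foetuses, so these counts are not independent. The foetuses that stood apart, BA 110 dpc replicate 1 and CH 180 dpc replicate 3, are included.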

How the data were processed

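Muscle RNA of 21 foetuses was labelled with Cy3 and hybridised to single-colour Agilent bovine arrays of 45220 spots, 1 array per foetus. The authors scanned the arrays and, per the labels' processing notes, extracted the deposited intensity of each spot with Agilent Feature Extraction 10.7. Per the study's methods the signals were detrended within each array and no background was subtracted. In the files, the processed intensity of spots dimmer than the array's median lay a median of 49.2 to 59.2 units below their raw median signal, so an offset had been removed by the software, which bears chiefly on dim probes. The deposited value table holds log2 values, of which 99.98% lay within 0.01 of the log2 of that intensity, so it is not scaled between arrays. No sample column was left unused (0).

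From the intensity, control spots and 258 outlier spot values were left out, spots of a probe were averaged, log2 values were taken and each array was scaled by its 75th percentile, with 2.69 then added throughout to set the median probe of a typical array to 0. Probes with a mean above 0 in at least 7 of 8 groups were kept (20132 of 43653). Probes were named through RefSeq transcripts and a cattle annotation table. Coordinates in that table were used only to say which genes are neighbours.

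All groups entered 1 limma 3.58.1 fit (R 4.3.3) with a mean for each breed and stage, moderated variance (13 residual and 3.79 prior degrees of freedom) and Benjamini-Hochberg adjustment over all kept probes, two-sided, with a threshold of 0.05. Genes under the filter were taken from a fit over all probes. The script was tested on simulated data. Errors of differences are standard errors. Each array is a separate foetus, and the small number of arrays limits the precision.

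Named in full are the chains of types I, III, IV and VI, in each class the 2 largest rises and falls that passed, every member that passed a breed comparison, and the 3 lowest p for the mean breed difference. The members and the lists of classes, pathway genes and markers were chosen with earlier results of these data known. Other members and genes were named after their values were seen. Alternatives covered background correction (normexp, offset 50), normalization, filters, probe choice, sex, slide, scan day, replicate number and leaving out arrays.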

Additional observations from a re-analysis of the deposited data

How the results depend on the processing

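Counts of collagens past the threshold stayed within 1.5 times the values above under the alternatives tried, with these exceptions. With slide as a block, 7 collagens passed from 110 to 260 dpc in BA and 1 from 180 to 210 dpc. In the unscaled value table, 3 passed from 110 to 180 dpc and 0 from 180 to 210 dpc. The cause was not tested. Leaving out each array in turn gave 11 to 12 collagens from 110 to 260 dpc, 8 to 12 in BA, 9 to 11 in CH, 5 to 8 from 110 to 180 dpc, 2 to 3 from 180 to 210 dpc, 4 to 11 from 210 to 260 dpc (4 without BA 260 dpc replicate 2), and 20 to 23 pathway genes. Every breed comparison and the breed by stage term gave 0 under all alternatives.

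Between 110 and 260 dpc no collagen that passed changed sign. *COL6A1* turned to 0.050 after median scaling and to 0.12 without both foetuses that stood apart. *COL6A2* turned to -0.020 after normexp, -0.0020 after quantile normalization, -0.38 in the value table, -0.43 with slide as a block and -0.033 as the mean of its probes. With single arrays left out, *COL6A1* ranged from -0.15 to 0.12 and *COL6A2* from -0.16 to 0.15. *COL8A2* passed as lower in the value table (-1.71), with sex as a covariate (-1.32) and with slide as a block (-2.50).

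The median change of all tested genes was 0.03, but 0.13 after median scaling and -0.36 in the value table, where 23.9% of called genes rose, against 51.7% with 75th percentile scaling, 44.6% after quantile normalization and 59.7% after median scaling. On both scan days that held 110 and 260 dpc the 11 collagens that passed kept their direction, with 3 foetuses against 3 on one day and 1 CH foetus against 2 on the other. The 1 slide with both stages held a single pair of unlike breed, BA 110 dpc replicate 1, a foetus that stood apart, and CH 260 dpc replicate 2, so it gives no within-slide check. Replicate numbers did not pair foetuses (median correlation of deviations 0.03 for 66 pairs of the same number and -0.0031 for 126 other pairs). With a replicate block, 11 collagens passed from 110 to 260 dpc, 10 in BA and 10 in CH, 7 from 110 to 180 dpc, 2 from 180 to 210 dpc, 8 from 210 to 260 dpc and 0 between the breeds, and 22 pathway genes passed.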
